A study of Mus musculus with 8 samples.

Results

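A group of 6 genes, those of IL-3, GM-CSF, the type 2 cytokines and Gata3, was read on 8 expression arrays of mouse T helper cells in which the enzyme Tet2 was either deleted or present. They are Il3 (interleukin-3), Csf2 (granulocyte-macrophage colony-stimulating factor, GM-CSF), Il4, Il5 and Il13 (the cytokines that define T helper 2, Th2, cells) and Gata3 (the transcription factor that directs Th2 cells). Each gene was read by the 1 probe set that the array's annotation ties to its symbol alone, and the 6 are a set of 6 among 19938 genes with such a probe set. The signal of Il3 was lower in Th17 than in Th1 cells in both genotypes, and Gata3 was lower in Th17 than in Th1 cells of the Tet2-deficient genotype. The Gata3 call was lost with any array of that comparison left out or with all probe sets tested. Its change between the subsets was not shown to differ between the genotypes. No gene of the 6 passed the test between Tet2-deficient and wild-type cells, against 0.00502% of all genes in Th1 and 0% in Th17 cells.

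The arrays came from Tet2-deficient Th17, wild-type Th17, Tet2-deficient Th1 and wild-type Th1 cells, with 2 arrays per group that the labels call biological replicates. Tet2-deficient cells were derived from CD2(Cre)Tet2(f/f) mice and wild-type cells from Tet2(f/f) mice, so that every group carried the floxed Tet2 alleles and only the first genotype also carried the Cre. Cre lines driven by CD2 are active in lymphocytes from an early stage, so the deletion is not limited to T helper cells. The age and number of the mice, the culture conditions and any restimulation before harvest are not given in the sources used here. Where nothing ties the 2 arrays of a group to separate animals, a p-value measures only the spread between arrays.

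IL-3, GM-CSF and IL-5 are secreted growth factors of myeloid cells. Their receptors pair a private alpha chain with a shared beta chain and signal through Jak2 and Stat5. IL-4 and IL-13 share the receptor chain Il4ra and signal through Stat6, which induces Gata3 in Th2 cells. Gata3 in turn opens the Il4, Il5 and Il13 genes, which lie together on mouse chromosome 11 in the same cluster as Csf2 and Il3. Th1 cells are known for interferon-gamma (Ifng) and the factor Tbx21, and Th17 cells for interleukin-17. Tet2 oxidizes methylated cytosine at CpG, a first step of demethylation, and the series asks how it takes part in T helper differentiation.

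The promoters of Il3, Csf2 and Gata3 are printed to show where CpG, the site on which Tet2 acts, stands in the genes whose signals varied most in the results below. They are RefSeq sequences of build GRCm38.p6, from 250 bases before to 50 bases after the annotated start, all on the minus strand and written 5′ to 3′ with CG in capitals. The windows are chr11:54267230-54267529 for Il3, chr11:54249850-54250149 for Csf2 and chr2:9878551-9878850 for Gata3.
Il3: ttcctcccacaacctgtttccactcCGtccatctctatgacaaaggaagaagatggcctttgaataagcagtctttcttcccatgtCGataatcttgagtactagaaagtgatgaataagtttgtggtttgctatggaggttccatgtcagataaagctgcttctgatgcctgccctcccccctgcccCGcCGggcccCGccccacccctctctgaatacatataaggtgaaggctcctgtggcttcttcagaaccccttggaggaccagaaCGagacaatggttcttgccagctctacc
Csf2: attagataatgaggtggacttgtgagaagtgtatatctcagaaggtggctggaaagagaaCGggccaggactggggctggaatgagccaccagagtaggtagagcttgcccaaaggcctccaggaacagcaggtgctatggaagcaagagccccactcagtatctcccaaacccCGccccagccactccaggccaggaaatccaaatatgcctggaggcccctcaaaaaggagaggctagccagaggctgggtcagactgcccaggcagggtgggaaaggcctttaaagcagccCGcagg
Gata3: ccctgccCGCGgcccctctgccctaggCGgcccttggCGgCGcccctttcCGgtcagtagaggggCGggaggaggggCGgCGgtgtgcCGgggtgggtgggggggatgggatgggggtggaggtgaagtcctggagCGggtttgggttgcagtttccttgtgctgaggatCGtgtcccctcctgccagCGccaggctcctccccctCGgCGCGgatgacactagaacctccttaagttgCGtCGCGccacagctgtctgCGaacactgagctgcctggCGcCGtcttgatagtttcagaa
The Il3 window held 6 CpG, and 47.9% of the 32851 mouse promoters in the table held as few or fewer. The Csf2 window held 3 CpG (31.4% as few or fewer), and the Gata3 window held 22 CpG (78.5% as few or fewer). Among the other members, the window of Il5 held 4, that of Il13 held 3, and both annotated starts of Il4 held 1 and 2. The letters GGAAA, the core bound by the T cell activation factor NFAT, were searched on both strands and stood once or more in 61.3% of all promoters, with 1 match in the Il3 window, 3 in the Csf2 window and 2 in the Gata3 window. The letters GATAA, a core bound by GATA factors, stood in 25.4% of all promoters, with 2 matches in the Il3 window, 1 in the Csf2 window and 0 in the Gata3 window. The letters TGANTCA, the site of AP-1, stood in 7.81% of all promoters and in 0 of the members' windows. A match is a run of letters and not a measured site, and methylation was not measured on these arrays.

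The labels were checked on genes of each cell type. The 5 T cell markers measured (Cd3d, Cd3e, Cd3g, Cd4, Cd28) were high on every array, with a log2 signal of 10.18 to 10.42 for Cd4. All 4 Th17 markers measured (Il17a, Il17f, Il23r and Ccr6) were higher in Th17 cells in both genotypes. Of the 6 Th1 markers listed, all measured, Ifng, Tbx21 and Il12rb2 were lower in Th17 than in Th1 cells in both genotypes. Il18r1, an IL-18 receptor chain, went against its list in Tet2-deficient cells, higher in Th17 cells at a log2 fold change of 0.87 (adjusted p = 0.00736), and stood at 0.27 in wild-type cells (adjusted p = 0.364). Its call ended without Tet2-deficient Th17 replicate 1 or without Tet2-deficient Th1 replicate 1. Cxcr3 stood at -0.18 in both genotypes, and Il18rap at 0.15 in Tet2-deficient and -0.39 in wild-type cells, none of them past the threshold. The Tet2 signal was 8.34 and 8.39 in Tet2-deficient Th17 cells, 8.51 and 8.49 in wild-type Th17 cells, 8.12 and 7.98 in Tet2-deficient Th1 cells, and 8.14 and 8.02 in wild-type Th1 cells. Which exons the probes cover and which exons are deleted are not given in the sources used here, so the deletion could not be checked from this signal. Xist, transcribed from the inactive X chromosome of female cells, had log2 signals of 8.60 and 11.27 in Tet2-deficient Th17 cells, 5.15 and 10.07 in wild-type Th17 cells and 4.80 to 5.07 in Th1 cells. On the linear scale, with Tet2-deficient Th17 replicate 2 set at 100%, this gives a female share of 14.7% in Tet2-deficient Th17 replicate 1, 0.187% and 42.9% in wild-type Th17 cells, and -0.130% to 0.105% in Th1 cells. All comparisons were also fitted with this share as a covariate.

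Other cell types known to make these cytokines were looked for by their markers. Each sum below adds the signals of a list on the linear scale and is given as its log2, so the brightest genes weigh most. The 10 markers of mast cells and basophils, all measured, had sums of 8.72 to 8.85 in Tet2-deficient Th17, 8.72 to 8.77 in wild-type Th17, 8.88 to 8.92 in Tet2-deficient Th1 and 8.85 to 8.88 in wild-type Th1 cells. The 4 eosinophil markers measured of 6 had sums of 7.99 to 8.06, 7.92 to 7.96, 8.05 to 8.18 and 8.11 to 8.12 in the same order of groups. The summed signal of the 7 myeloid markers, all measured, was 10.56 to 10.75 in Tet2-deficient Th17 cells, 9.78 to 10.08 in wild-type Th17 cells, 9.70 to 9.74 in Tet2-deficient Th1 cells and 9.62 to 9.63 in wild-type Th1 cells. Ly6g, a granulocyte gene also seen in some T cells, carried this sum, with 10.39 and 10.13 in Tet2-deficient Th17 cells, 9.03 and 9.53 in wild-type Th17 cells and 8.35 to 8.72 in Th1 cells. Over the whole list, 7 of 7 markers had changes above 0 between Tet2-deficient and wild-type Th17 cells (median 0.13), with 0 called, against 0% of all genes. Between Th17 and Th1 cells 5 of 7 lay below 0 in Tet2-deficient cells (median -0.09) and 6 of 7 in wild-type cells (median -0.16), and Ly6g alone was called, as higher in Th17 cells. Natural killer markers (5 of 5 measured) summed to 8.42 to 8.76 in Tet2-deficient Th17, 7.96 to 8.13 in wild-type Th17, 8.70 to 8.76 in Tet2-deficient Th1 and 8.75 to 8.76 in wild-type Th1 cells. Of these 5, 4 lay above 0 between Tet2-deficient and wild-type Th17 cells (median 0.09), with 0 called, against 0% of all genes. Between Th17 and Th1 cells 3 lay above 0 in Tet2-deficient cells, with Klrd1 called higher and Eomes lower. In wild-type cells 1 lay above 0 and 4 below, and Eomes alone was called, as lower in Th17 cells. The list for group 2 innate lymphoid cells (7 of 8 measured), which holds Gata3 itself and Rora, a factor also of Th17 cells, summed to 12.45 to 12.54, 12.33 to 12.43, 11.11 to 11.60 and 11.29 to 11.53 in the order of groups given for the sums above. Between Th17 and Th1 cells 4 of these 7 markers lay below 0 in each genotype (medians -0.05 in Tet2-deficient and -0.02 in wild-type cells). Rora and Id2 were called higher in Th17 cells in both genotypes, and Gata3 lower in Tet2-deficient cells. In the same comparison 2 of 2 CD8 T cell markers lay below 0 in each genotype (medians -0.15 in Tet2-deficient and -0.24 in wild-type cells). In that order of genotypes, 5 and 4 of 5 dendritic markers lay below 0 (medians -0.24 and -0.16). Of 5 B cell markers measured of 6, 3 and 5 did (medians -0.02 and -0.14). None of these was called, against 10.1% and 8.4% of all genes. Whether the markers of any list have a part in the members' values was not tested. In bulk RNA, fewer cells with a transcript and less of it per cell cannot be told apart.

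Il3 encodes a growth factor of blood progenitors, mast cells and basophils that activated T cells secrete. Its log2 signal was 4.87 and 4.54 in Tet2-deficient Th17 cells, 4.91 and 4.69 in wild-type Th17 cells, 7.37 and 6.77 in Tet2-deficient Th1 cells, and 8.13 and 8.28 in wild-type Th1 cells. Both wild-type Th1 arrays lay above both Tet2-deficient Th1 arrays, all 4 Th1 arrays lay above all 4 Th17 arrays, and the Th17 arrays of the genotypes overlapped. The group means ± SD were 4.70 ± 0.23, 4.80 ± 0.16, 7.07 ± 0.42 and 8.20 ± 0.11 in that order of groups (n = 2 each).

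Csf2 encodes GM-CSF, which acts on macrophages, granulocytes and dendritic cells and is known as a product of several T helper subsets. Its log2 signal was 6.79 and 6.84 in Tet2-deficient Th17 cells, 7.01 and 7.05 in wild-type Th17 cells, 7.05 and 6.78 in Tet2-deficient Th1 cells, and 6.87 and 7.55 in wild-type Th1 cells. The Tet2-deficient Th17 arrays lay below the wild-type Th17 arrays, while all other pairs of groups in the comparisons overlapped. Replicate 2 of wild-type Th1 was the high array, and the SD in that group was 0.48, against 0.02 to 0.19 in the others.

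Il4 encodes the cytokine that starts and maintains Th2 differentiation. Log2 signals of Il4 were 5.81 and 5.94 in Tet2-deficient Th17 cells, 5.97 and 5.83 in wild-type Th17 cells, 6.24 and 6.03 in Tet2-deficient Th1 cells, and 6.18 and 5.95 in wild-type Th1 cells. The Tet2-deficient Th17 arrays lay below the Tet2-deficient Th1 arrays, and the other groups compared overlapped.

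Il5 encodes the growth factor of eosinophils. The arrays read Il5 at log2 signals of 4.75 and 5.005 in Tet2-deficient Th17 cells, 5.10 and 5.13 in wild-type Th17 cells, 5.18 and 4.93 in Tet2-deficient Th1 cells, and 4.96 and 5.41 in wild-type Th1 cells. The Tet2-deficient Th17 arrays lay below the wild-type Th17 arrays, and the other groups compared overlapped.

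Il13 encodes a cytokine of mucus production and tissue fibrosis. For Il13 the log2 signal was 6.56 and 6.76 in Tet2-deficient Th17 cells, 6.75 and 6.63 in wild-type Th17 cells, 6.88 and 6.86 in Tet2-deficient Th1 cells, and 6.81 and 6.82 in wild-type Th1 cells. The Th17 arrays lay below the Th1 arrays in each genotype, by little: the 4 group means spanned 0.21 log2 units.

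Gata3 is also needed for T cell development and stays on at a lower level in T helper cells that are not Th2. Gata3 was read at log2 signals of 7.34 and 7.53 in Tet2-deficient Th17 cells, 7.48 and 7.95 in wild-type Th17 cells, 8.14 and 7.98 in Tet2-deficient Th1 cells, and 7.82 and 7.98 in wild-type Th1 cells. The Tet2-deficient Th17 arrays lay below the Tet2-deficient Th1 arrays, and the wild-type Th17 arrays overlapped the wild-type Th1 arrays.

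**Figure D1:**
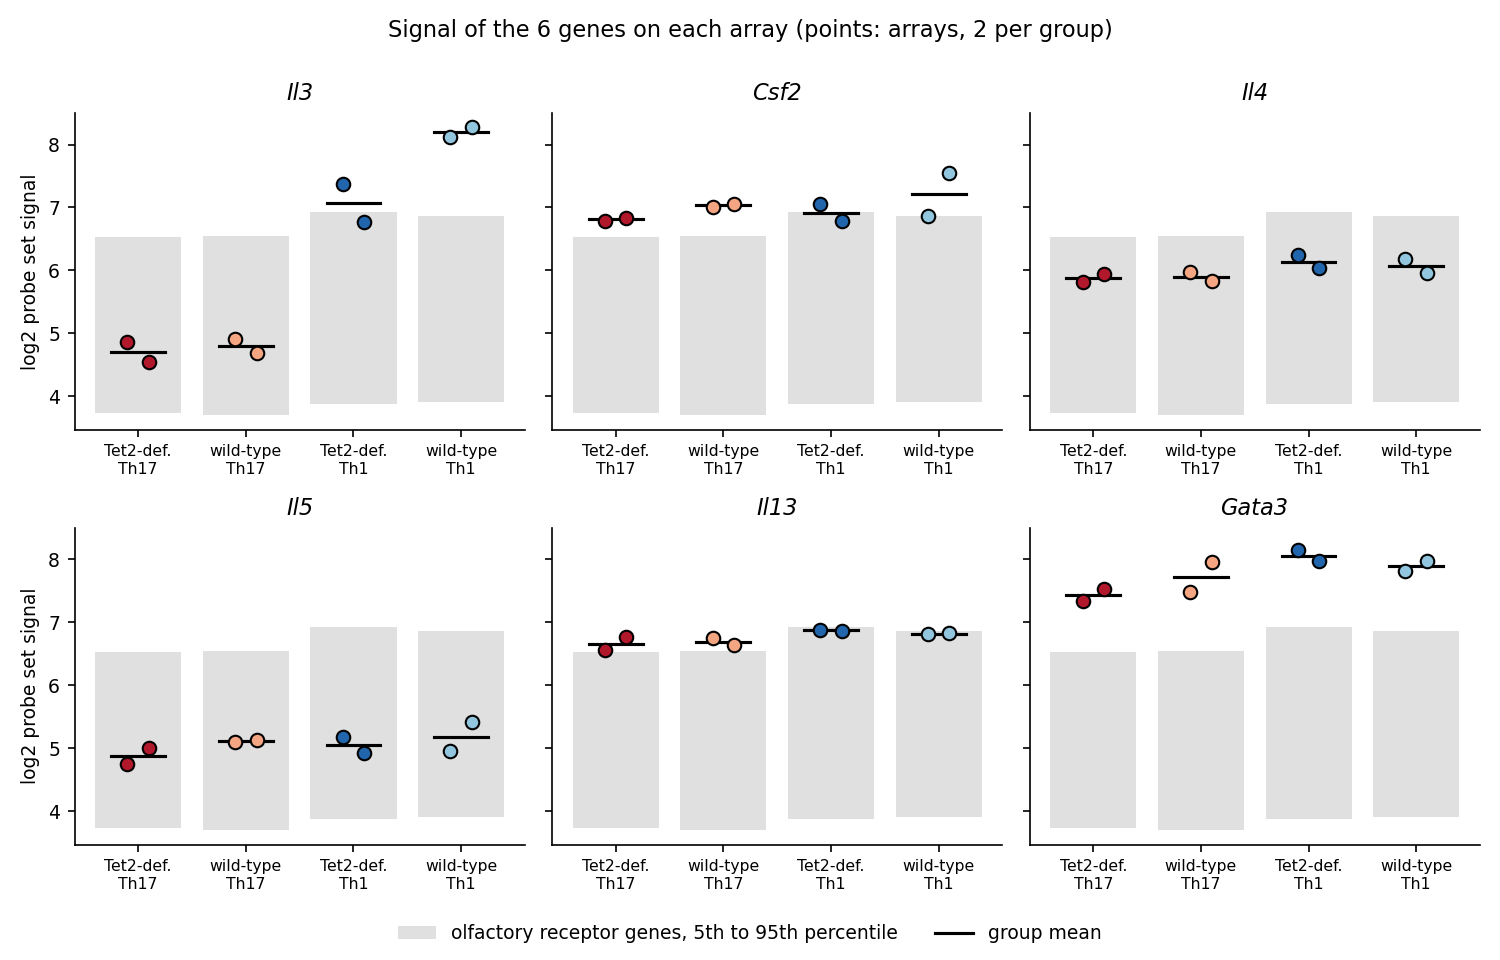
Log2 probe set signal (y axis) of the 6 genes on each array in the 4 groups (x axis), with points for arrays, a line for the mean of 2 arrays and a grey band for the 5th to 95th percentile of olfactory receptor genes in that group. Il3 sits inside the band in both Th17 groups and at 6.77 to 8.28 in Th1 cells, where the lower Tet2-deficient array also lies inside the band. Il4 and Il5 stay inside it in all 4 groups.

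The grey band is a scale added after the values were seen. It comes from 1015 olfactory receptor genes, which are known for detecting odours in the nose, and it shows what signals their probe sets read in these cells. Probe sets differ in how strongly they bind, so the band gives no order of expression between genes, and no detection call was used. The band ran over 3.74 to 6.53 in Tet2-deficient Th17, 3.69 to 6.55 in wild-type Th17, 3.88 to 6.93 in Tet2-deficient Th1 and 3.90 to 6.86 in wild-type Th1 cells. The group means of Il4 (5.87 to 6.14) and Il5 (4.88 to 5.18) lay inside it throughout. The Il3 means lay inside it in both Th17 groups and above it in both Th1 groups. In Tet2-deficient Th1 cells the Il3 mean was just above the band, and the lower array lay inside it. The means of Gata3 (7.43 to 8.06) lay above the band in all groups. The Csf2 means (6.81 to 7.21) lay above it in 3 groups and just inside it in Tet2-deficient Th1 cells. The Il13 means, at 6.66 and 6.69, were just above its upper limit in Tet2-deficient and wild-type Th17 cells, and at 6.87 and 6.82 they were just below it in Tet2-deficient and wild-type Th1 cells.

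The first question is what the loss of Tet2 changed in Th1 cells. Il3 stood lower in Tet2-deficient than in wild-type Th1 cells, by a log2 fold change of -1.14 ± 0.18 (SE; 95% interval -1.52 to -0.75), which is 2.20-fold lower in signal. It ranked 3 of 19938 genes by p, with an adjusted p of 0.215 (limma, Benjamini-Hochberg over all genes), so it did not pass the threshold of 0.05. None of the 6 genes passed, against 0.00502% of all genes, which is the single gene Ifng. At an unadjusted p under 0.05, 1 of the 6 (Il3) passed, against 6.05% of all genes. Without Tet2-deficient Th1 replicate 1, the array with the higher Il3 signal of its group, the change was -1.43 with an adjusted p of 0.0369, and without replicate 2 of that group it was -0.84 with an adjusted p of 0.747.

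The remaining members differed less between Tet2-deficient and wild-type Th1 cells. Csf2 had a log2 fold change of -0.29 (95% interval -0.68 to 0.10), and without wild-type Th1 replicate 2 it was 0.05. Il5 stood at -0.13 (-0.46 to 0.20), Il4 at 0.07 (-0.20 to 0.34), Il13 at 0.06 (-0.19 to 0.30) and Gata3 at 0.16 (-0.18 to 0.50), with adjusted p-values of 0.852 to 0.967 for these 5 genes. Their intervals leave room for changes of up to these bounds and do not show equal signals. The Tet2-deficient arrays lay wholly below the wild-type arrays for 1 of 6 genes (Il3), against 13.7% of all genes, and wholly above for 1 of 6 (Il13), against 19.6%. The median change was -0.04 over the 6 genes and 0.01 over all genes. Among olfactory receptor genes, whose median change was 0.05 (5th to 95th percentile -0.23 to 0.35), none of 1015 was as low as Il3. Of them, 2.6% were lower than Csf2, and Il4, Il5, Il13 and Gata3 lay within these percentiles.

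In Th17 cells the log2 fold changes between Tet2-deficient and wild-type cells were all below 0 with every array in the fit, the farthest at -0.28. They were -0.10 for Il3 (95% interval -0.49 to 0.29), -0.22 for Csf2 (-0.61 to 0.17), -0.03 for Il4 (-0.29 to 0.24), -0.24 for Il5 (-0.57 to 0.09), -0.03 for Il13 (-0.27 to 0.21) and -0.28 for Gata3 (-0.62 to 0.06). None of the 6 passed the limma test (adjusted p = 0.99996 for each), against 0% of all genes, and 0 of 6 had an unadjusted p under 0.05, against 4.13% of all genes. The Tet2-deficient arrays lay below the wild-type arrays for 2 of 6 genes (Csf2 and Il5), against 14.1% of all genes, and above for 0 of 6, against 18.8%. Leaving out 1 array moved Gata3 to -0.05 without wild-type Th17 replicate 2 and to -0.52 without replicate 1 of that group, and moved Il5 to -0.11 without Tet2-deficient Th17 replicate 1 and to -0.37 without replicate 2 of that group. The median was -0.16 over the 6 genes and 0.01 over all genes. Olfactory receptor genes had a median change of 0.04 (5th to 95th percentile -0.18 to 0.28). Of them, 2.7% were lower than Csf2, 1.7% lower than Il5 and 0.59% lower than Gata3. Il3, Il4 and Il13 lay within these percentiles. The signal means of Il3, Il4 and Il5 in both Th17 groups lay inside the band of olfactory receptor signals, which limits what a genotype difference there can show. The Tet2-deficient Th17 arrays also differed from the wild-type ones in female share and in Ly6g (above), and the part of these in the 6 values was not tested beyond a fit with the female share as covariate, in which Il3 stood at 0.05.

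Over both subsets, the mean log2 fold change between Tet2-deficient and wild-type cells was -0.62 ± 0.13 (SE) for Il3, with an adjusted p of 0.503, and -0.25 ± 0.13 for Csf2, with an adjusted p of 0.915 (limma). The Csf2 value was -0.08 without wild-type Th1 replicate 2 and -0.42 without replicate 1 of that group. None of the 6 genes passed, against 0% of all genes, and 1 of 6 (Il3) had an unadjusted p under 0.05, against 5.48% of all genes. The difference between the subsets was tested itself, as the genotype effect in Th17 cells minus that in Th1 cells. For Il3 it was 1.04 ± 0.25 (SE), with an unadjusted p of 0.00139 and an adjusted p of 0.926 (limma), so the Il3 difference in Th1 cells was not shown to differ from that in Th17 cells. The Th17 part of this value comes from signals inside the olfactory receptor band. For Gata3 it was -0.44 ± 0.22, with an adjusted p of 0.999, and it was -0.21 without wild-type Th17 replicate 2 and -0.68 without replicate 1 of that group. None of the 6 passed, against 0% of all genes, and 1 of 6 (Il3) had an unadjusted p under 0.05, against 4.48%.

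**Figure D2:**
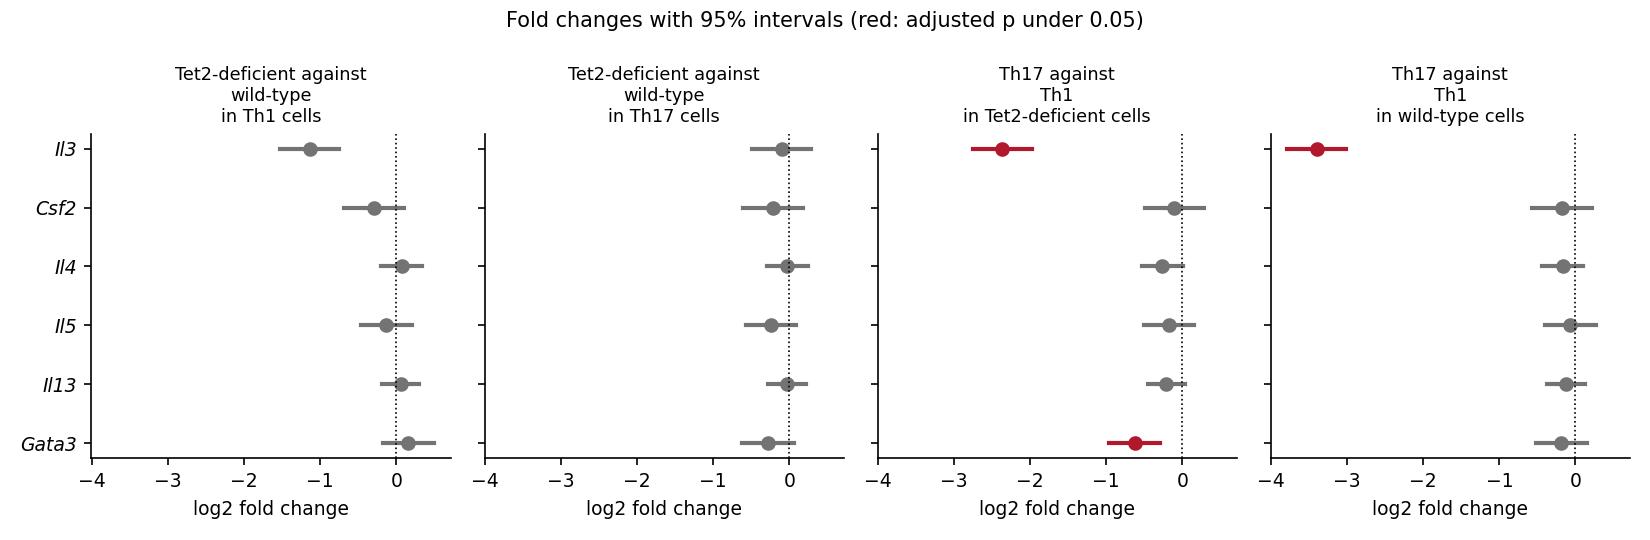
Log2 fold change (x axis) of the 6 genes (rows) in the 2 genotype comparisons and the 2 subset comparisons, with points for the estimates, bars for 95% intervals and red for adjusted p under 0.05. Il3 is red in both subset comparisons, at -2.36 and -3.40, and Gata3 in that of Tet2-deficient cells, at -0.63.

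Between the subsets, Il3 fell in Th17 relative to Th1 cells in both genotypes. In Tet2-deficient cells the log2 fold change was -2.36 ± 0.18 (SE; 95% interval -2.75 to -1.97), a signal 5.14-fold lower in Th17 cells, with an adjusted p of 6.7e-06 (limma). In wild-type cells it was -3.40 ± 0.18 (-3.79 to -3.01), a signal 10.5-fold lower, with an adjusted p of 2.78e-07 and rank 12 of 19938 genes by p. Since the Th17 signals lie inside the band of olfactory receptor genes, these are ratios of signals. The difference of these 2 values is the same 1.04 as the genotype difference between subsets above, whose adjusted p was 0.926. Ifng, the defining Th1 cytokine, moved the same way, with log2 fold changes of -4.35 in Tet2-deficient and -5.69 in wild-type cells.

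Gata3 also fell in Th17 relative to Th1 cells in the Tet2-deficient genotype, by a log2 fold change of -0.63 ± 0.16 (SE; 95% interval -0.97 to -0.29), a signal 1.55-fold lower with an adjusted p of 0.0239 (limma). In wild-type cells its change was -0.18 ± 0.16 (-0.52 to 0.15), with an adjusted p of 0.508, and the 2 changes were not shown to differ (adjusted p = 0.999 for the difference). The call in Tet2-deficient cells ended when any of its 4 arrays was left out. The values were -0.53 without Tet2-deficient Th17 replicate 1 (adjusted p = 0.190), -0.72 without replicate 2 of that group (0.0565), -0.54 without Tet2-deficient Th1 replicate 1 (0.166) and -0.71 without replicate 2 of that group (0.0582). It also ended with all probe sets tested (adjusted p = 0.122), and with the female share as covariate the change was -0.86, with an adjusted p of 0.0293.

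In all, 2 of 6 genes (Il3 and Gata3) were called lower in Th17 cells of the Tet2-deficient genotype, against 3.79% of all genes called lower, 6.32% called higher and 10.1% called in either direction. In wild-type cells 1 of 6 (Il3) was called lower, against 3.44% of all genes called lower, 4.97% higher and 8.4% in either direction. Of the others, Csf2 stood at -0.11 (95% interval -0.50 to 0.29) in Tet2-deficient cells and at -0.18 (-0.57 to 0.21) in wild-type cells. Il4 stood at -0.26 (-0.53 to 0.00) in Tet2-deficient and -0.17 (-0.44 to 0.10) in wild-type cells. Il5 stood at -0.18 (-0.51 to 0.15) and -0.07 (-0.40 to 0.26), and Il13 at -0.21 (-0.46 to 0.03) and -0.13 (-0.37 to 0.12), in the same order of genotypes. The adjusted p-values of these 4 genes lay between 0.210 and 0.827. The Th17 arrays lay wholly below the Th1 arrays for 4 of 6 genes in Tet2-deficient cells (Il3, Il4, Il13 and Gata3), against 31.7% of all genes, and for 2 of 6 in wild-type cells (Il3 and Il13), against 28.4%.

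All 6 genes had changes below 0 in both genotypes, and in each genotype so did most of the 1015 olfactory receptor genes. The median log2 fold change of those 1015 genes was -0.28 in Tet2-deficient cells (5th to 95th percentile -0.64 to 0.00) and -0.29 in wild-type cells (-0.63 to -0.01), while the median of all genes was -0.03 in each. Of the olfactory receptor genes, 17.9% were called in Tet2-deficient cells and 13.9% in wild-type cells. The changes of Csf2, Il4, Il5 and Il13 lay within these percentiles in both genotypes. The Gata3 change in Tet2-deficient cells, -0.63, lay close to their lower end, with 5.71% of olfactory receptor genes lower still. None of the 1015 was as low as Il3 in either genotype.

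**Figure D3:**
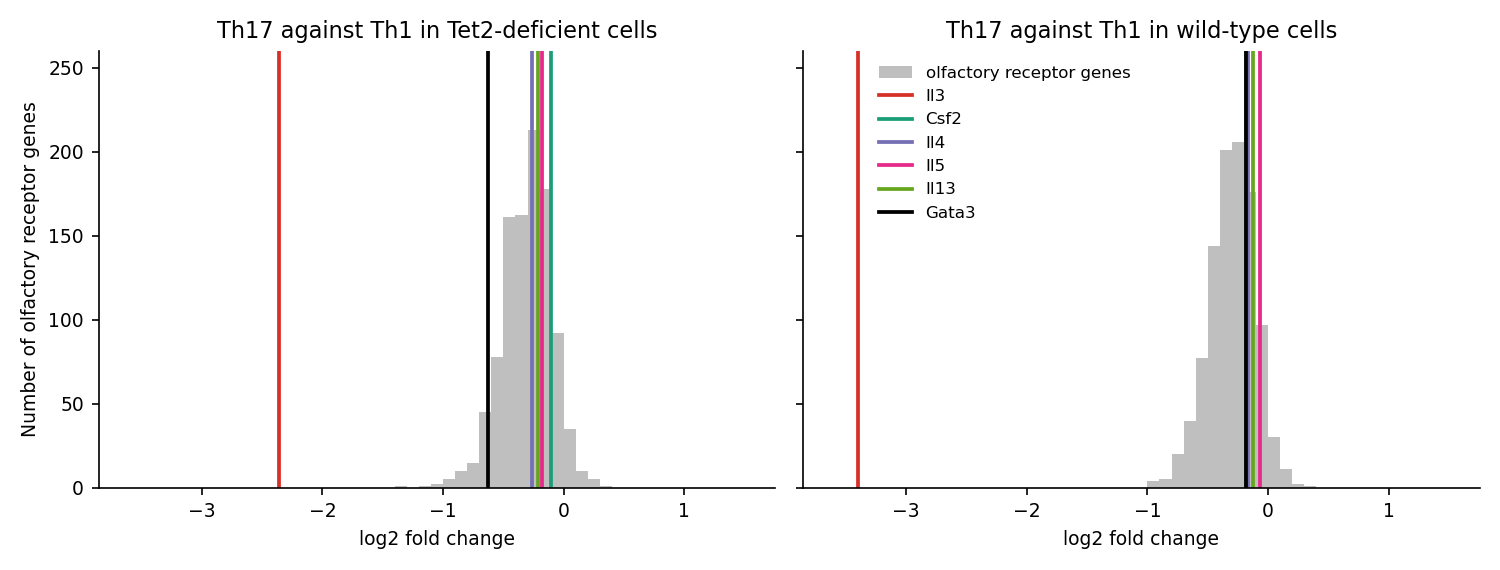
Number of olfactory receptor genes (y axis) by log2 fold change between Th17 and Th1 cells (x axis), in Tet2-deficient cells on the left and wild-type cells on the right, with vertical lines for the 6 genes. The grey distribution is centred at -0.28 and -0.29, it covers every gene of the 6 but Il3, and the lines of Csf2, Il4 and Gata3 coincide near -0.18 in wild-type cells.

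The genes along the cytokine cluster were set beside the members. On chromosome 11, 21 genes whose lower end (the smaller coordinate, on either strand) lies within 250 kb of that of a member were measured, 5 members and 16 neighbours. Irf1, an interferon-induced transcription factor that lies between Il5 and the carnitine transporter gene Slc22a5, was lower in Th17 cells. Its log2 signal was 7.95 and 7.77 in Tet2-deficient Th17, 7.66 and 8.30 in wild-type Th17, 9.62 and 9.64 in Tet2-deficient Th1, and 9.26 and 8.83 in wild-type Th1 cells. The log2 fold change was -1.77 (adjusted p = 1.08e-04) in Tet2-deficient cells and -1.06 (adjusted p = 0.00497) in wild-type cells by limma, and the wild-type value had an adjusted p of 0.0770 with all probe sets tested. With the mean of the gene's probe sets, the changes were -0.97 in Tet2-deficient and -0.50 in wild-type cells, and both passed. Csf2, whose lower end lies 17.8 kb from that of Il3, was not called in either genotype. A further 3 neighbours passed the limma test in 1 genotype each and no longer did when any 1 array of that comparison was left out. They were Uqcrq, a respiratory chain subunit (-0.44, adjusted p = 0.0379; 0.0605 to 0.296 with an array left out), and Acsl6, a fatty acid ligase (-0.39, adjusted p = 0.0359; 0.112 to 0.158), both in Tet2-deficient cells. The last was Fnip1, a metabolic regulator (0.48, adjusted p = 0.0319; 0.0769 to 0.133), in wild-type cells. No neighbour passed between genotypes, against 0.00502% of all genes in Th1 and 0% in Th17 cells. Irf1 stood at 0.58 (adjusted p = 0.797, limma) between Tet2-deficient and wild-type Th1 cells. None of the 6 neighbours of Gata3 that were measured was called in any comparison. Over all 22 measured neighbours, 0 were called higher and 3 lower in Th17 cells of the Tet2-deficient genotype, against 6.32% and 3.79% of all genes. Wild-type cells had 1 called higher and 1 lower, against 4.97% and 3.44% of all genes.

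**Figure D4:**
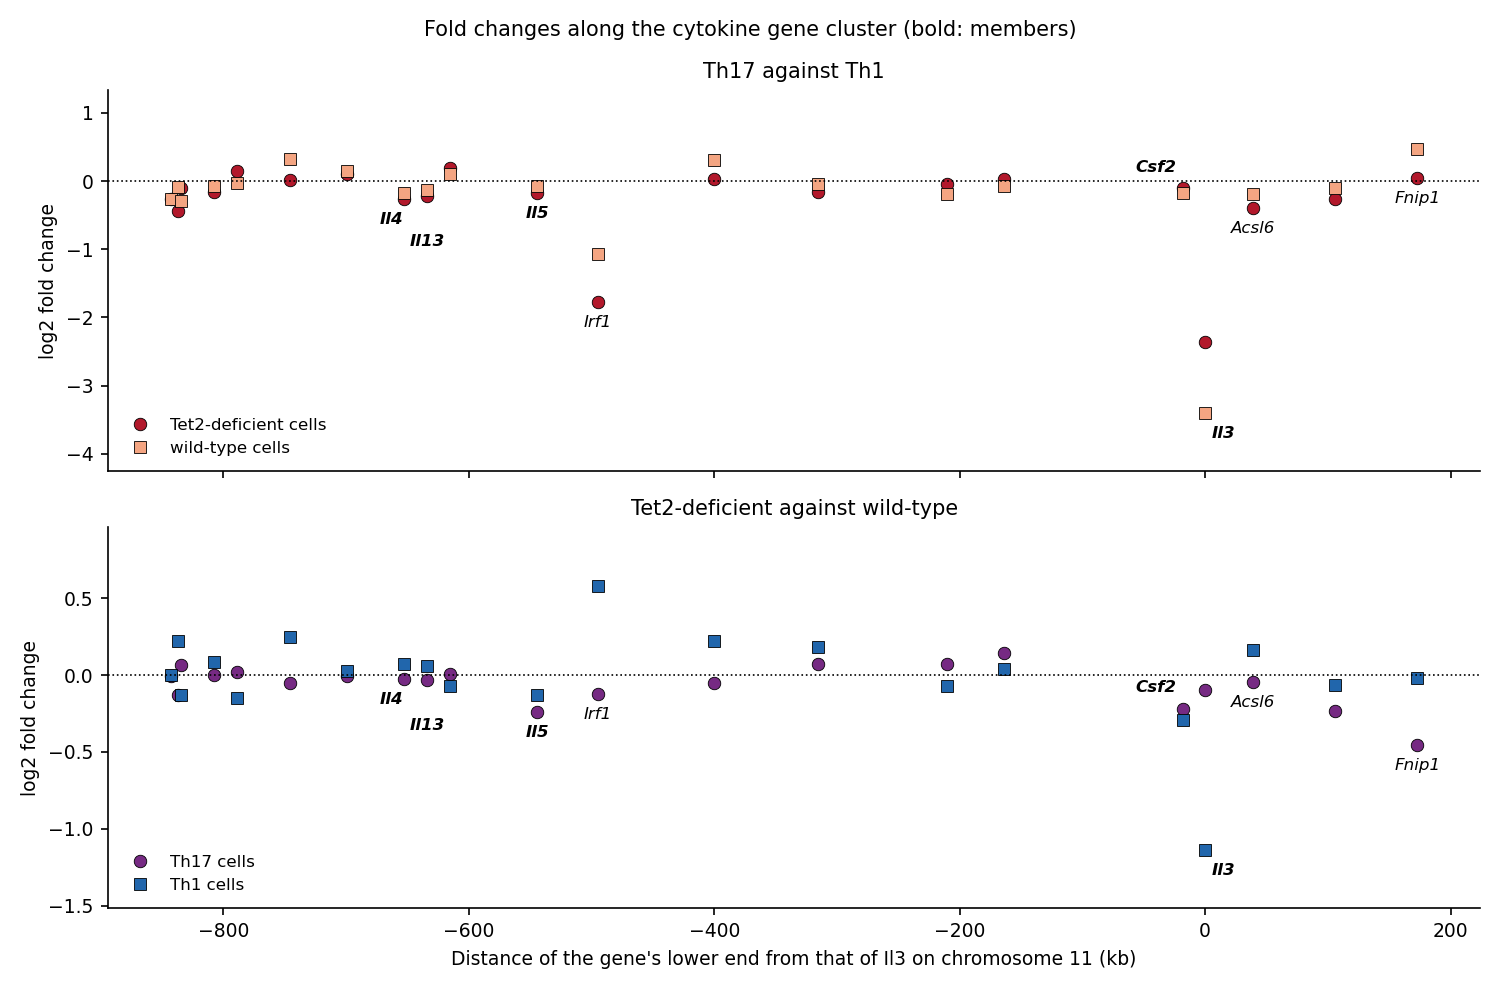
Log2 fold change (y axis) of the genes along the chromosome 11 cluster by distance of each gene's lower end from that of Il3 in kb (x axis), between Th17 and Th1 cells above and between Tet2-deficient and wild-type cells below, with 1 symbol per gene and comparison. Between subsets Il3 and Irf1 stand well below 0, at -2.36 and -1.77 in Tet2-deficient and -3.40 and -1.06 in wild-type cells, while Csf2 next to Il3 stands at -0.11 and -0.18.

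Receptors and signal transducers of the 6 products were read on the same arrays. Of 9 receptor genes, 8 were measured and none passed between genotypes, against 0.00502% of all genes in Th1 and 0% in Th17 cells. Their median log2 fold change was 0.00 in Th1 and -0.02 in Th17 cells, against 0.01 over all genes in each. The largest genotype difference in Th1 cells was that of Il13ra1, a receptor chain of IL-13 and IL-4, at -0.38 (adjusted p = 0.809). Il13ra1 was the 1 of 8 called between the subsets in wild-type cells (3.44% of all genes were called lower), lower in Th17 cells by a log2 fold change of -0.94 (adjusted p = 0.00321, limma; 0.0669 with all probe sets tested), and stood at -0.50 (adjusted p = 0.0664) in Tet2-deficient cells. Il3ra, the private chain for IL-3, stood at -0.14 in Tet2-deficient and -0.05 in wild-type cells in that comparison, and Il4ra at 0.23 and 0.36. Of 10 transducer and feedback genes, 9 were measured and 0 passed between genotypes, against the same shares of all genes as for the receptors. Between subsets 2 were higher in Th17 cells of the Tet2-deficient genotype and 3 in wild-type cells, against 6.32% and 4.97% of all genes, and 0 were lower in either, against 3.79% and 3.44%. Stat5b, which carries the signal of IL-3, GM-CSF and IL-5, stood at 0.51 in Tet2-deficient cells (adjusted p = 0.0181; 0.187 without Tet2-deficient Th17 replicate 1) and 0.65 in wild-type cells (adjusted p = 0.00596; 0.0605 without wild-type Th17 replicate 2).

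Transcription factors and DNA methylation enzymes known to act on the Th2 cytokine genes were called in both directions between the subsets, and none was called between genotypes. Of 31 listed, 30 were measured, and 0 passed between genotypes in either subset, against 0.00502% of all genes in Th1 and 0% in Th17 cells. In Tet2-deficient cells 5 were higher and 9 lower in Th17 than in Th1 cells, against 6.32% and 3.79% of all genes. In wild-type cells 7 were higher and 6 lower, against 4.97% and 3.44%. The median log2 change was -0.08 and -0.02 in these comparisons, against -0.03 over all genes. Maf, which activates Il4 in Th2 cells and is also made in Th17 cells, was higher in Th17 cells by a log2 fold change of 3.52 (adjusted p = 2.57e-06) in Tet2-deficient and 3.67 (1.76e-06) in wild-type cells. Tbx21, the Th1 factor that restrains Gata3, was lower in Th17 cells at -3.34 (1.07e-07) and -2.58 (9.61e-07). Runx3, known to silence Il4 in Th1 cells, was lower at -0.99 (5.69e-04) and -0.88 (0.00161), and Zfpm1, a cofactor that holds Gata3 in check, at -1.06 (2.42e-04) and -0.75 (0.00330). Bcl6, a repressor of Th2 genes, was higher at 1.87 (6.42e-06) and 1.18 (2.51e-04). Each of these pairs gives Tet2-deficient cells first. Between genotypes the largest values were those of Prdm1, a repressor of Ifng and Bcl6, at -0.76 in Th1 cells (adjusted p = 0.210), and Bcl6, at 0.75 in Th17 cells (adjusted p = 0.377).

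Other genes of Th2 cells were called in both directions between the subsets. Of 19 listed, 17 were measured and 0 passed between genotypes, against 0.00502% of all genes in Th1 and 0% in Th17 cells. In Tet2-deficient cells 4 were higher and 4 lower in Th17 than in Th1 cells, against 6.32% and 3.79% of all genes. In wild-type cells 4 were higher and 2 lower, against 4.97% and 3.44%. The median changes were -0.04 in Tet2-deficient and -0.02 in wild-type cells, against -0.03 over all genes. Il24, an IL-10 family cytokine that Th2 cells make, had log2 signals of 6.66 and 6.17 in Tet2-deficient Th17, 6.75 and 6.94 in wild-type Th17, 8.79 and 8.73 in Tet2-deficient Th1, and 9.59 and 9.58 in wild-type Th1 cells. It was lower in Th17 cells at -2.35 (adjusted p = 1.61e-06) in Tet2-deficient and -2.74 (4.07e-07) in wild-type cells, and stood at -0.83 (adjusted p = 0.379) between Tet2-deficient and wild-type Th1 cells. Ccr4, a chemokine receptor shared by Th2 and Th17 cells, was higher in Th17 cells at 1.16 (4.31e-04) in Tet2-deficient and 1.63 (3.60e-05) in wild-type cells. Ccr8, a chemokine receptor of Th2 cells, was lower in Th17 cells of the Tet2-deficient genotype at -0.68 (adjusted p = 0.00245) and stood at -0.21 (0.272) in wild-type cells. Il9, the cytokine of Th9 cells, had signals of 5.92 to 6.18 on all 8 arrays.

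Of 16 effector cytokines of other T helper subsets, 15 were measured, and Ifng alone passed between Tet2-deficient and wild-type Th1 cells. Its log2 signal was 10.43 and 10.18 in Tet2-deficient Th1 cells and 11.55 and 11.84 in wild-type Th1 cells, a log2 fold change of -1.39 (adjusted p = 0.00438, limma). The Ifng change no longer passed when replicate 2 of the wild-type Th1 arrays was dropped (-1.24, adjusted p = 0.0790), or replicate 2 of the Tet2-deficient ones (-1.26, 0.141), with only the arrays of both groups (0.151) and with all probe sets tested (0.274). In Th17 cells 0 of the 15 passed, against 0% of all genes, with a median of -0.38 against 0.01 over all genes. Of the 15, 13 lay below 0 and 2 above, and 9 had an unadjusted p under 0.05 (limma), against 4.13% of all genes. Between the subsets 5 were higher and 6 lower in Th17 than in Th1 cells of the Tet2-deficient genotype, against 6.32% and 3.79% of all genes, and 4 were higher and 3 lower in wild-type cells, against 4.97% and 3.44%. Il17a, the defining Th17 cytokine, stood at 3.07 in Tet2-deficient and 3.77 in wild-type cells, and Ccl3, a chemokine for myeloid cells, at -2.99 and -2.48, all past the threshold (largest adjusted p = 1.43e-06).

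The genes whose signals followed each member most closely over the 8 arrays were found among the 2807 or 2808 other genes whose group means spanned at least 0.5 log2 units. Since the arrays fall into a Th17 and a Th1 cluster, Pearson's r serves here only as a measure of likeness. Closest to Il3 were Stra6, the retinol transporter gene (r = 0.994), Ifng (r = 0.991) and Il24 (r = 0.987), each high in Th1 and low in Th17 cells. Closest to Csf2 were Gm9833 (r = 0.926) and Hsph1, a heat shock protein (r = 0.921), and Hsph1 was also closest to Il5 (r = 0.910). Hsph1 had its highest signal, 10.04, on wild-type Th1 replicate 2, the array that was also highest for Csf2 and Il5, against 9.15 to 9.63 on the other 7 arrays. Without that array the r of Csf2 with Hsph1 was 0.727 and that of Il5 with Hsph1 was 0.801. The 3 genes closest to Il4 and the 3 closest to Il13 were all olfactory receptor genes, led by Olfr1233 (r = 0.974) and Olfr1494 (r = 0.973). Closest to Gata3 were Olfr384 (r = 0.944), Gfod1 (r = 0.934) and Wsb2 (r = 0.917).

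**Figure D5:**
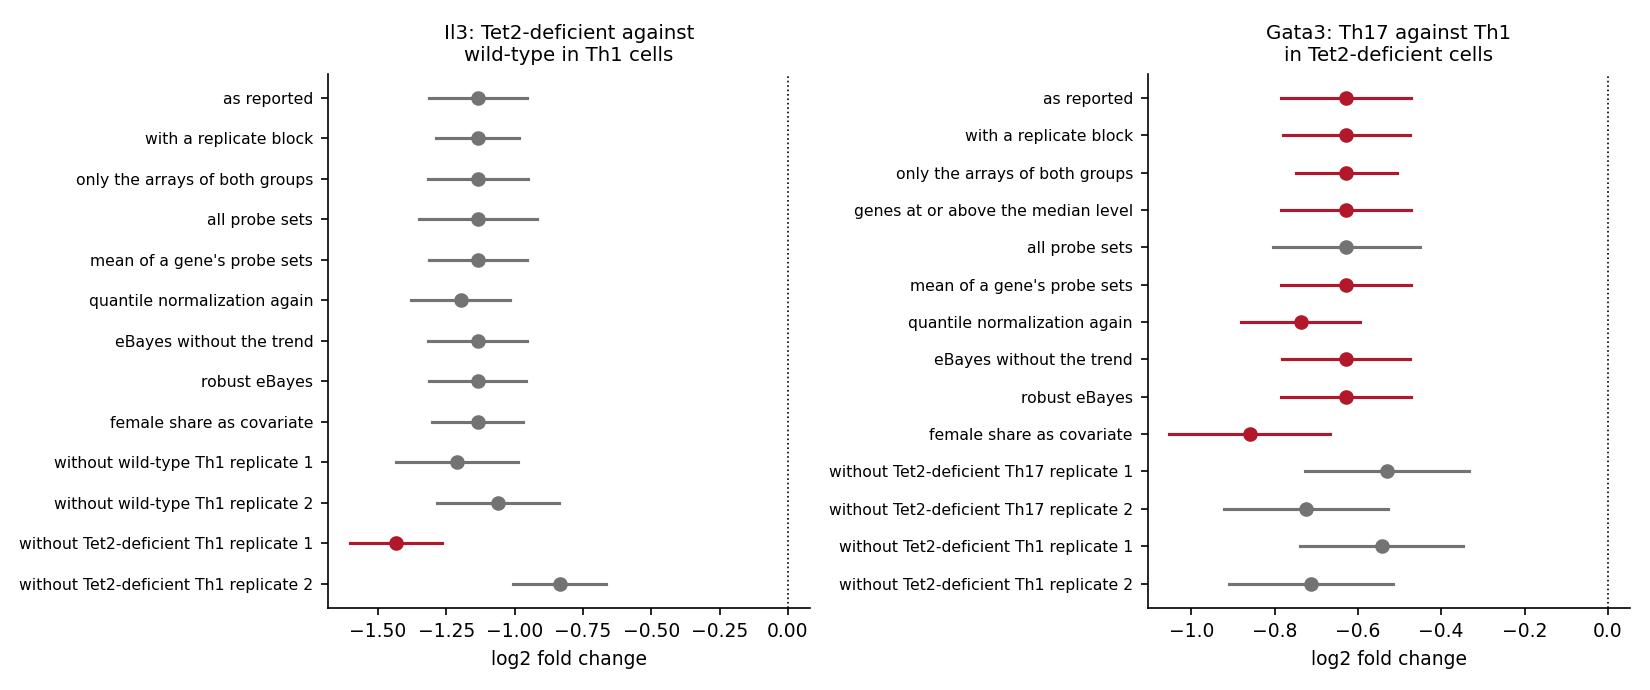
Log2 fold change (x axis) of Il3 between Tet2-deficient and wild-type Th1 cells on the left and of Gata3 between Th17 and Th1 cells of the Tet2-deficient genotype on the right, under each setting (rows), with bars of ± 1 SE and red for adjusted p under 0.05. Il3 stays between -1.43 and -0.84 and is red only without Tet2-deficient Th1 replicate 1, and Gata3 stays between -0.86 and -0.53 and is red in 8 of 13 alternatives.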

How the data were processed

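Total RNA of 8 cultures was labelled with biotin for Affymetrix arrays, per the labels' protocols. The authors deposited 1 signal per probe set and array on a log2 scale, as the values show, with GCOS, Affymetrix Expression Console and RMA listed, without roles, in the submitters' processing notes. RMA background-corrects, quantile-normalizes and summarizes probes, so weak signals are compressed. Arrays give no read depth: 2 arrays per group limit the precision.

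Of 35556 probe sets, 21789 carried 1 gene symbol, 1621 several and 12146 none in the platform annotation. The probe set with the highest mean stood for each of 19938 genes. Group means were fitted over all 8 arrays with limma 3.58.1 (R 4.3.3), lmFit and eBayes with an intensity trend (4 residual and 8.32 prior degrees of freedom), and p-values were adjusted over all genes per contrast (Benjamini-Hochberg). "Passed", "called", "rose" and "fell" mean an adjusted p under 0.05. Promoters came from a RefSeq table. The method was tested on simulated data with independent noise and changes added to some genes, which does not measure its power on these arrays.

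The 6 genes, the lists and the tests were chosen with earlier results of these data known. Open to naming were the 6 genes and up to 6 passing members per list and comparison (otherwise the 3 of largest genotype difference). So were measured neighbours and the 3 genes closest to each member. Some of these genes are not named above. The olfactory receptor scale was chosen after values were seen, as were Hsph1 without an array, Il3ra and Il4ra between subsets, Il9, Ly6g, the Th1 markers that were not lower in Th17 cells, and some values of named genes in further comparisons. Alternatives were a replicate block, only both groups' arrays, a median-level filter, all probe sets, probe set means, repeated quantile normalization, eBayes without trend or robust, a female-share covariate and leaving out each array.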

Additional observations from a re-analysis of the deposited data

How the results depend on the processing

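Over the named genes and alternatives, 1413 values kept their direction and side of the threshold, 81 fell short of it, 1 passed it and 33 changed sign. The number of members called between Th17 and Th1 cells was 2 in Tet2-deficient cells and became 1 with genes at or above the median level (which leaves out Il3, whose mean is lower) and, through Gata3, with all probe sets and without each array (1 to 1); in wild-type cells it was 1 and became 0 with the median-level filter, for the same reason. Between Tet2-deficient and wild-type Th1 cells it was 0 and ranged from 0 to 1 with an array left out. A fit on both groups' arrays alone gives no mean or subset-difference effect.

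Same-numbered arrays gave no sign of pairing: the correlation of their deviations from the group means was -0.19 to 0.06 over 6 pairs of groups. A pairing that affects few genes could be missed by this correlation. With a replicate block, Il3 between Tet2-deficient and wild-type Th1 cells stood at -1.14 with an adjusted p of 0.0665, Gata3 between subsets in Tet2-deficient cells at -0.63 with 0.0229, and the genes called between subsets numbered 1767 in Tet2-deficient and 1398 in wild-type cells. The subset calls over all genes, 2015 in Tet2-deficient and 1675 in wild-type cells, were 1001 and 599 with all probe sets, 801 to 1204 and 663 to 1427 with an array left out, 726 in Tet2-deficient cells with the female share and 1101 in wild-type cells on both groups' arrays alone. Quantile normalization applied again gave 906 higher and 726 lower in Tet2-deficient cells, against 1260 and 755, and 669 and 626 in wild-type cells, against 990 and 685.

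Small changes turned sign: Il5 between subsets in wild-type cells with repeated quantile normalization (0.049), and, with the female share, Il3 between genotypes in Th17 cells (0.049) and Il13 in the mean genotype effect (-0.00959); the cause was not tested. With an array left out, the ranges that crossed 0 were as follows. Between Tet2-deficient and wild-type Th1 cells they were -0.631 to 0.048 for Csf2, -0.045 to 0.18 for Il4, -0.36 to 0.098 for Il5 and -0.034 to 0.34 for Il3ra. In Th17 cells they were -0.26 to 0.067 for Il3, -0.097 to 0.045 for Il4 and -0.13 to 0.068 for Il13. In the mean genotype effect they were -0.036 to 0.079 for Il4, -0.036 to 0.062 for Il13 and -0.18 to 0.056 for Gata3. In the genotype effect in Th17 cells minus that in Th1 cells they were -0.27 to 0.41 for Csf2, -0.21 to 0.019 for Il4, -0.34 to 0.12 for Il5 and -0.18 to 0.011 for Il13. Between Th17 and Th1 cells they were -0.24 to 0.029 for Csf2 in Tet2-deficient cells, and -0.52 to 0.16 for Csf2, -0.30 to 0.16 for Il5 and -0.42 to 0.053 for Gata3 in wild-type cells.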
